A study of Mus musculus with 2 samples.

Results

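Integrin subunits that bind cartilage matrix were examined in cultured mouse chondrocytes that had not yet been stretched and in cells collected 24 h after stretching. The group comprised 10 genes, and each gene was taken to be measured by the array probes listed under 1 of its RefSeq transcripts. Of these 10, 9 had a probe, 13 probes in all, among 20660 genes that had one. A total of 8 members were well above background on both arrays, among 14222 such genes. Itga2 was well above background before loading only, and no probe was matched to Itga10.

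Both samples were primary chondrocytes of 6-day-old C57BL/6J mice, seeded 48 h before the time of stretching in silicon chambers coated with fibronectin, itself an integrin ligand. The cells of the sample taken 24 h after loading had received 10% elongation at 0.5 Hz for 30 min, and those of the other sample were taken before any strain. Each time point was 1 RNA sample on 1 array, so that no test was run, no p-value is given, and having so few arrays limits how precise any value can be. No unloaded culture of the later time point was analysed here, and the effect of loading cannot be told apart from that of further culture. All 14 listed chondrocyte markers were detected on both arrays, among them Col2a1, Acan and Sox9, and their summed intensity was 1507216 before loading and 1522981 at 24 h. Bright probes such as that of Col2a1 (499543 and 474876) weigh most in this sum, and levels of different probes are not comparable.

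Integrins are receptors built from 1 alpha and 1 beta chain, which hold the cell to its matrix and couple it to the actin cytoskeleton through talin, kindlin and other adaptors. In cartilage they serve as sensors of deformation of the matrix. The members fall into subunits that pair with Itgb1 to bind collagens (Itga1, Itga2, Itga10 and Itga11), the fibronectin receptor subunit Itga5, the laminin receptor subunit Itga6, the subunit Itgav with its partners Itgb3 and Itgb5, which recognise an arginine-glycine-aspartate sequence in fibronectin, vitronectin and osteopontin, and the common partner Itgb1.

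At 24 h after loading, the 8 detected members read within 1.5-fold of their level before loading on their brightest probes. Of these 8, 0 differed by more than 1.5-fold in either direction, against 9.49% of all detected genes, and 0 by more than 2-fold, against 2.5%. In so small a group, a count of 0 does not set the members apart from these shares. By direction, 3.66% of detected genes were past 1.5-fold upward and 5.84% downward (520 and 830 genes), and 0.668% and 1.83% passed 2-fold. When arrays were scaled by their medians or to spike-in controls, 802 and 763 genes were past 1.5-fold upward and 613 and 632 downward. The median log2 ratio (24 h after minus before loading) of the 8 members was -0.05, against -0.01 for all detected genes. With both of these other scalings the member median was 0.04, against 0.08 and 0.07 for all detected genes. The member ratios ran from -0.45 for Itga11 to 0.38 for Itga5, inside the range from -0.63 to 0.51 that held the middle 90% of detected genes. A log2 ratio of 0.58 corresponds to 1.5-fold.

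The error given with each ratio combines the scanner software's error of both spots, covers error within the arrays only, and is called the within-array error. For the 8 detected members it came to 0.20 or 0.21, because the software assigned an error of about 10% of the intensity to each of these spots. The ratio was farther from 0 than this error in 2 of the 8 members, Itga5 and Itga11, against 42.8% of detected genes, and farther than 2 such errors in Itga11 alone, against 16.4%. This last count turned with the processing. With scaling by the median or to spike-in controls, Itga5 (0.48 and 0.47) was past 2 errors and Itga11 (-0.35 and -0.36) was not, and with normexp background correction Itga11 (-0.39) was within them. Every member probe had 1 spot, so that repeat spots gave no spread of their own. For 259 detected probes spotted 8 times or more, the median SD among repeat spots was 0.08 on the log2 scale. This spread too lies within the arrays and holds nothing of the spread between cultures.

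**Figure D1:**
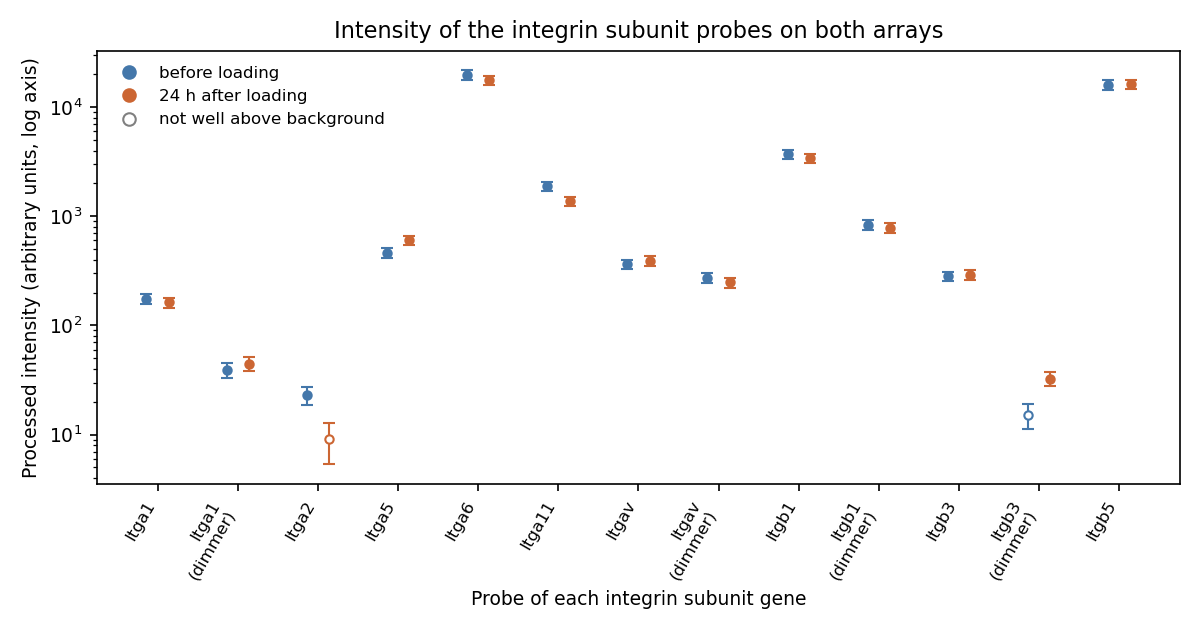
Processed intensity of every probe of the integrin subunits before (blue) and 24 h after loading (orange) on a log axis, with the scanner software's error as bars and open symbols where the spot was not well above background. Levels of different probes are not comparable with each other. The points of each pair lie close together in all probes except the dim ones of Itga2 and Itgb3.

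Among the subunits of collagen receptors, the probe of Itga11, a subunit of the receptor for fibrillar collagens that is best known from fibroblasts, read 1877 before loading and 1374 at 24 h. The resulting log2 ratio, -0.45 with a within-array error of 0.20 (1.37-fold lower), was the lowest among the detected members, and 9.06% of detected genes had a lower one. Of the 29 spots within 100 µm of the Itga11 spot, 0 had changed more than 2-fold. The brighter probe of Itga1, a collagen receptor subunit that prefers network-forming collagen, gave 176 before and 162 after, a log2 ratio of -0.12 (0.21). Its dimmer probe gave 38.8 and 44.7, a ratio of 0.20 (0.31). The probes of Itga1 thus lay on opposite sides of 0, each within its own error.

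Itga2, the platelet collagen receptor subunit, was near the limit of detection. Its intensity was 23.1 before loading, and at 24 h it was 9.06 and not well above background. Against the lowest intensity well above background on the later array, 17.8, Itga2 was at least 1.29-fold lower at 24 h. Normexp background correction gave a log2 ratio of -0.34, a smaller difference than this bound. The level of Itga10, the subunit regarded as the main collagen II receptor of chondrocytes, was not analysed here.

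Among the receptors for fibronectin and related ligands, the probe of Itga5 gave 461 before loading and 601 at 24 h. The log2 ratio of 0.38 (0.20), or 1.31-fold higher, was the highest among the detected members, and 91.2% of detected genes had a lower one. Of the 28 spots around it, 1 had gone past 2-fold upward and 1 downward. Normexp correction gave 0.25 for Itga5. The brighter probe of Itgav gave 362 and 392, a log2 ratio of 0.12 (0.21), and its dimmer probe 274 and 247, a ratio of -0.15 (0.21). The sign for Itgav therefore turned with the probe, and the mean over its probes was -0.01.

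The probe of Itga6, which forms laminin receptors with Itgb1 or Itgb4, gave 19685 before loading and 17576 at 24 h. Its log2 ratio of -0.16 (0.20) was smaller than its error.

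No brightest probe of a beta subunit had a ratio farther from 0 than its error. Itgb1, the partner of every collagen receptor alpha subunit, gave 3712 before and 3406 at 24 h on its brighter probe and 838 and 785 on the other. The log2 ratios of -0.12 (0.20) and -0.09 (0.20) lay close together. Itgb5, the partner of Itgav in a vitronectin receptor, gave 16048 and 16150, a ratio of 0.01 (0.20). For Itgb3, which pairs with Itgav on osteoclasts and other cells and with Itga2b on platelets, the brighter probe gave 283 and 291, a ratio of 0.04 (0.21). The dimmer probe of Itgb3 was not well above background before loading (15.2) and stood at 32.6 at 24 h, at least 1.89-fold higher. Around that dim spot 6 of 29 spots were past 2-fold downward and 1 upward. The probes of Itgb3 thus differed, and its larger ratio came from the one near background.

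**Figure D2:**
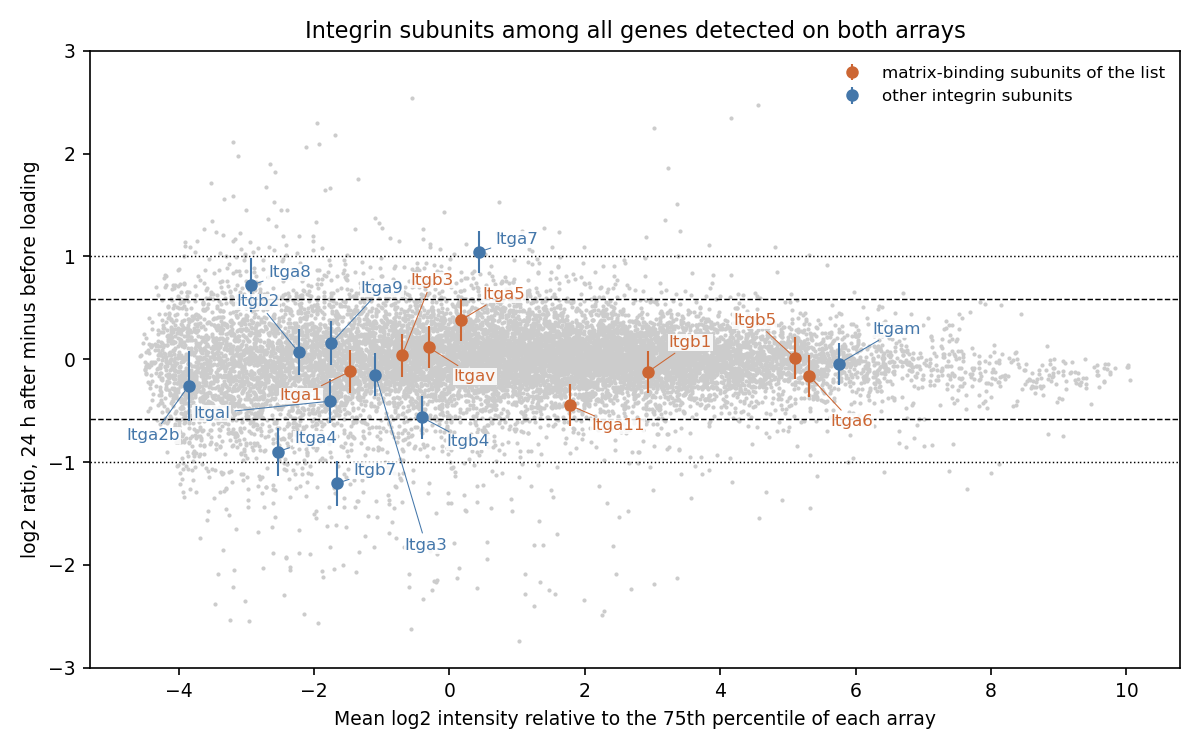
Log2 ratio (24 h after minus before loading) against the mean log2 intensity after scaling to the arrays' 75th percentiles, for all 14222 detected genes (grey), the 8 detected matrix-binding subunits (orange) and 11 other detected integrin subunits (blue). Bars are within-array errors, dashed lines mark 1.5-fold and dotted lines 2-fold. All orange points lie between the dashed lines, and Itga7, Itga8, Itga4 and Itgb7 lie outside them.

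Since a receptor needs both chains, the ratio of each alpha subunit was set against that of its beta partner. This difference does not depend on a constant scaling of the arrays. The ratio of Itga5 exceeded that of Itgb1 by 0.51 with an error of 0.29, and that of Itga11 was below that of Itgb1 (-0.33, error 0.29). Itga1 and Itgb1 differed by 0.01 (0.29) and Itga6 and Itgb1 by -0.04 (0.29). Itgb4, the other partner of Itga6, gave 427 before and 289 at 24 h, a log2 ratio of -0.56 (0.21), and Itga6 exceeded it by 0.40 (0.29). Itgav differed from Itgb3 by 0.08 (0.29), from Itgb5 by 0.11 (0.29) and from Itgb1 by 0.24 (0.29). Among these 8 pairs, the difference from the partner was larger than the error for Itga5 and Itga11 with Itgb1 and for Itga6 with Itgb4. None of these differences reached 2 errors. The share of such pairs over all genes was not determined, while 42.8% of detected genes were singly past 1 error. Itga5 and Itga11, chosen after their values were seen as the highest and the lowest member, differed from each other by 0.83 (0.29), and by 0.64 with normexp correction.

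The sequences before the starts of these genes are shown for Itga5 and Itga11 because they stood at opposite ends of the group. Each is the stretch of 250 bases before the start that the RefSeq promoter table uses on GRCm38, read 5′ to 3′ on the gene's strand, chr15:103366792-103367041 (minus strand) for Itga5 and chr9:62677605-62677854 (plus strand) for Itga11. Capitals mark matches on either strand to the GC box GGGCGG, the CCAAT box, the TATA box TATAAA, the AP-1 site TGANTCA, the TEAD site GGAATG and the NF-κB site, searched by its consensus, all chosen after the data were seen.
Itga5: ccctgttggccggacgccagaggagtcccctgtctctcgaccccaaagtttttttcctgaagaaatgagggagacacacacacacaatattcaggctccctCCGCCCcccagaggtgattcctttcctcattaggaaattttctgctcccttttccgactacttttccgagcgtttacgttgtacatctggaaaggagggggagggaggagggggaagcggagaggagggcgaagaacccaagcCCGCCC
Itga11: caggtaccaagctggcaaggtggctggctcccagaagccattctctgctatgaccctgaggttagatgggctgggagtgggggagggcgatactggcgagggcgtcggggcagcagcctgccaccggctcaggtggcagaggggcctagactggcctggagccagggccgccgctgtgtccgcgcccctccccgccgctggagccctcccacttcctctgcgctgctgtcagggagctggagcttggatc
The Itga5 stretch held 2 GC boxes and none of the other motifs, and the Itga11 stretch held none of them. The GC box occurred in 32.7% of 32851 such stretches, the CCAAT box in 33.8%, the TATA box in 12.4%, the TEAD site in 12.6%, the NF-κB site in 7.25% and the AP-1 site in 6.75%. Bases G and C made up 55.6% of the Itga5 stretch and 68.4% of that of Itga11, against a median of 52.4%. Among the 8 members with such a stretch (all but Itga6 and Itgb3), that of Itgav lay inside the annotated gene, downstream of its first base. Itgb1 and Itgb5 also held GC boxes (1 and 3), Itgb1 and Itga10 held 1 TEAD site each, and none held an AP-1 or NF-κB site. These matches describe letters in a short window and were not tested as binding sites.

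Some integrin subunits outside the group were past 1.5-fold. Of 16 other subunits, 15 had a probe and 11 were detected. Of the 11, 2 were past 1.5-fold upward and 2 downward, against 3.66% and 5.84% of all detected genes, and their median log2 ratio was -0.15. The difference between these counts and those of the 8 matrix-binding members was not tested. Itga7, a laminin receptor subunit of muscle, gave 439 before loading and 905 at 24 h, a log2 ratio of 1.04 (0.20) or 2.06-fold higher. Normexp correction gave 0.89 for Itga7, which is inside 2-fold. Itga8, which binds nephronectin, gave 47.7 and 78.6, a ratio of 0.72 (0.26) at a dim probe that came to 0.26 with normexp correction. Itga4, a fibronectin receptor subunit of leukocytes and other cells, gave 110 and 58.7, a ratio of -0.90 (0.23), or -0.45 with normexp correction. The dimmer probe of Itga4 read only 3.76 and 3.84 and was detected at neither time point, so that this ratio rests on the brighter probe alone. Itgb7, the leukocyte partner of Itga4, gave 224 and 97.3, a ratio of -1.21 (0.22) or 2.31-fold lower, and -0.87 with normexp correction. The ratio of Itga7 exceeded that of its partner Itgb1 by 1.17 (0.29).

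The detected ligands were mostly within 1.5-fold of their level before loading. Of 32 listed ligand genes, 30 were detected, with a median log2 ratio of 0.02, and 1 was past 1.5-fold upward and 3 downward, against the same shares of 3.66% and 5.84%. The ratio was farther from 0 than its error in 17 of the 30, against 42.8% of detected genes. In 9 it was farther than 2 errors, against 16.4%. Fn1, which encodes fibronectin, gave -0.15 (0.20), and Col2a1, the fibrillar collagen of cartilage, -0.07 (0.20). Ibsp, the bone sialoprotein recognised by Itgav with Itgb3, fell from 259 to 61.9, or 4.18-fold, a log2 ratio of -2.06 (0.23) that was -1.34 with normexp correction, and its dimmer probe was well above background before loading only. Lama1, a laminin chain, had a ratio of -0.92 (0.21), and Tnc, which encodes tenascin C, -0.87 (0.22). A dimmer probe of Tnc gave -0.57 (0.34), within 1.5-fold, and normexp correction gave -0.47 for its brighter one. Col4a2, a basement membrane collagen chain, was the ligand gene past 1.5-fold upward, from 828 to 1265, a ratio of 0.61 (0.20), which normexp correction brought to 0.58, just under 1.5-fold.

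Inside the cell, the detected adaptors and kinases of focal adhesions had ratios within 1.5-fold on their brightest probes. Of 32 listed genes 27 were detected, 0 were past 1.5-fold in either direction, against 9.49% of all detected genes, and the median log2 ratio was 0.04. The ratio was farther from 0 than its error in 10 of the 27, against 42.8% of detected genes. The ratios ran from -0.36 (0.20) for Lims1, an adaptor of integrin-linked kinase, to 0.36 (0.20) for Tns1, which encodes a tensin. The dimmer probe of Lims1 gave -0.10 (0.20). Tln1, which encodes the talin that activates integrins, gave 0.29 (0.20). Ptk2, which encodes focal adhesion kinase, gave 0.19 (0.20), and Ilk, integrin-linked kinase, 0.15 (0.20). Tln1, Ptk2 and Ilk, like Fn1 and Col2a1, were named for their role and not by their values.

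Membrane proteins that associate with integrins likewise had ratios within 1.5-fold on their brightest probes. All 13 were detected, with 0 past 1.5-fold in either direction, against 9.49% of all detected genes, and a median of -0.05. In so small a list, a count of 0 does not set these genes apart from that share. The ratio was farther from 0 than its error in 9 of the 13, against 42.8% of detected genes, and farther than 2 errors in 0, against 16.4%. Cd151, a tetraspanin that binds laminin receptors, had the highest ratio of 0.39 (0.20), and 0.70 (0.20) on its dimmer probe, which is past 1.5-fold. Plaur, the urokinase receptor, had the lowest, -0.36 (0.20).

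**Figure D3:**
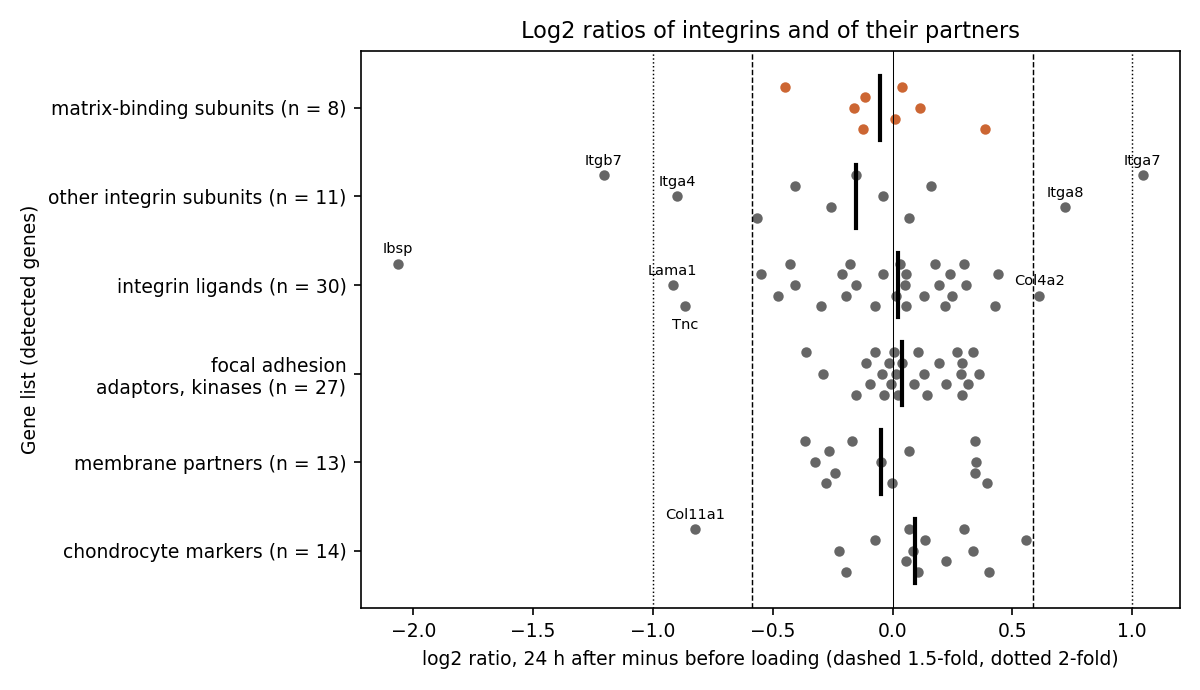
Log2 ratios (24 h after minus before loading) of the detected genes of 6 lists, 1 point per gene, with the median of each list as a vertical bar and the number of detected genes beside its name. Vertical spread within a list only separates the points. The 8 matrix-binding subunits (orange), the focal adhesion genes and the membrane partners all lie within the dashed 1.5-fold lines, while genes named in the plot lie outside them.

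Several of these subunits are also made by other cell types, and in RNA of a whole culture fewer cells of a type and less RNA per cell cannot be told apart. Of 11 macrophage and osteoclast markers, 8 were detected, with a median log2 ratio of 0.14. The summed intensity of all listed markers with a probe, detected or not, was 45828.5 before and 47178 after loading. This sum mainly follows the bright probes of Ctsk and of the integrin subunit Itgam (25496 and 24759), and levels of different probes are not comparable. Among the osteoclast markers, Ctsk gave 15505 before and 17637 at 24 h, Acp5 631 and 763 and Ocstamp 96.7 and 102, while Calcr and Dcstamp were not well above background. The macrophage marker Csf1r had the lowest ratio of the list, -0.15 (0.20), with 3646 and 3288, and 0.11 as the mean over its probes. Other macrophage markers had ratios above 0, with Lyz2 at 367 and 506, a ratio of 0.46 (0.205), and Adgre1 at 55.6 and 59.0, a ratio of 0.09 (0.26). No probe was matched to Cd68. Ptprc, a marker of leukocytes, stood at 20.9 and 46.1 at a dim probe, a ratio of 1.14 (0.35), or 0.44 with normexp correction. Of 5 platelet markers, 2 were detected, Pf4 with a ratio of -1.16 (0.21) and Itga2b with -0.26 (0.34), while Gp9, Gp1ba and Ppbp were not well above background. The summed intensity of the platelet list was 467 before and 231 at 24 h, which mainly follows the 1 probe of Pf4 (418 and 188). Of 7 endothelial markers 2 were detected, Kdr and Pecam1. The brighter probe of Kdr gave 12774 and 12375, a ratio of -0.05 (0.20), which was 0.05 with scaling by the median. The dimmer probe of Kdr read only 5.05 and 5.63 and was detected at neither time point. Pecam1 gave 111 and 130, a ratio of 0.23 (0.22), while Cdh5, Tie1, Tek, Emcn and Cldn5 were not well above background. Of 6 epithelial markers 3 were detected, with Krt18 at -0.71 (0.21), or -0.53 with normexp correction, Krt14 highest at -0.17 (0.24), and Epcam, Cdh1 and Krt8 not well above background. Of 8 fibroblast and tenocyte markers 7 were detected, from -0.44 (0.20) for Scx to 0.21 (0.21) for Mkx. Among the chondrocyte markers, with a median of 0.10, Col11a1, a minor fibrillar collagen chain, was 1.77-fold lower and Matn1, a matrilin, had the highest ratio, 0.56 (0.20), or 0.65 to 0.73 and past 1.5-fold with scaling by the median or normexp correction. The part of these cells in the integrin ratios was not tested.

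Under the 11 alternatives run for the brightest probes or their means, 0 of the 8 detected members passed 1.5-fold, and the dimmer probe of Itgb3 did. The ratio of Itga11 lay between -0.46 and -0.35 and that of Itga5 between 0.25 and 0.48, so that each kept its sign. Itga6 and Itgb1 were below 0 and Itgb3 and Itgb5 above 0 under every alternative, by less than their errors. Itga1 and Itgav changed sign with the mean over their probes.

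**Figure D4:**
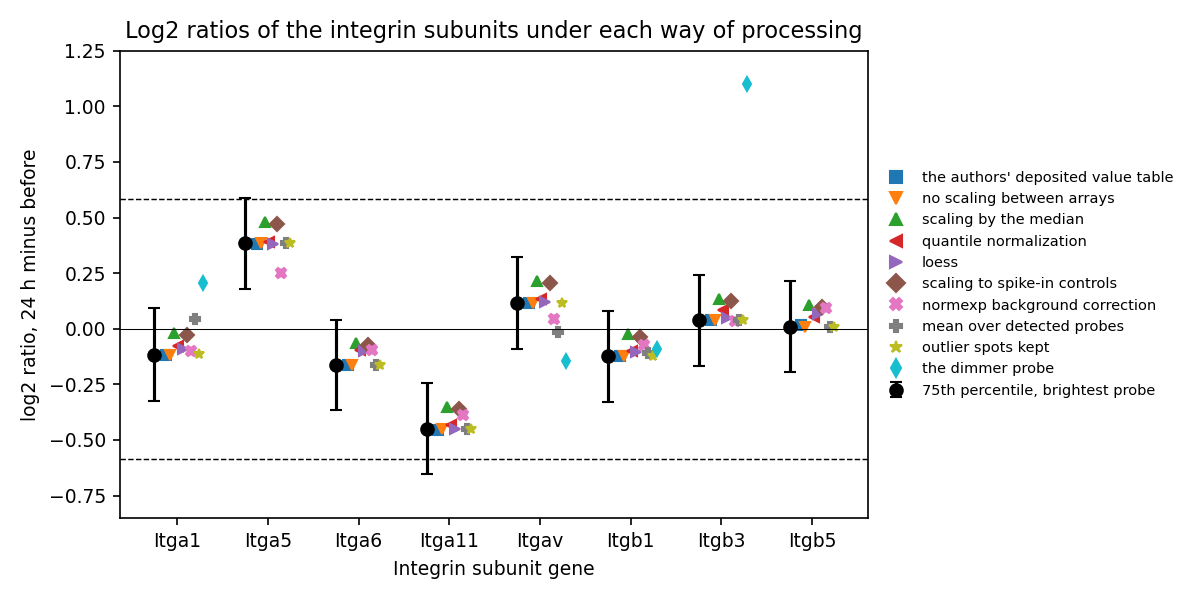
Log2 ratios (24 h after minus before loading) of the 8 detected members, with the within-array error as a bar on the black point, and the same ratio under other ways of processing (coloured symbols). Dashed lines mark 1.5-fold. The symbols of one gene lie within its error bar, except those of dimmer probes of Itga1, Itgav and Itgb3, of which that of Itgb3 was not well above background before loading.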

How the data were processed

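RNA of 1 sample before loading and 1 sample 24 h after loading was labelled with Cy3 and hybridised to 1 Agilent array each. The deposited intensity of the spots came, per the file headers, from Agilent Feature Extraction 10.10.1.1, background-subtracted within the array and not normalized between arrays, with the software's error. Flags and spot positions per the file headers were used as well. A deposited table of the same intensities was run as an alternative. Of 59305 spots other than controls, 255 outlier spots were left out. Log2 intensities were averaged per probe and set relative to each array's 75th percentile (466 on both arrays). Probes were named through RefSeq transcripts of GRCm38 without versions (27235 of 55678 probes). The brightest probe represents a gene, which is detected when well above background on both arrays. Of the spots, 59.1% and 57.7% were well above background, and 0 were saturated.

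The members and gene lists were chosen with earlier results of these data known. All 10 members are named, with each list's genes past 1.5-fold (at most 6) and its highest and lowest ratio, and genes named outside this rule were chosen for their role or after their values were seen. No gene is named for likeness of pattern, since 2 arrays give 1 ratio per gene. Python 3.11.15 (numpy 2.4.6, pandas 2.3.3) was used, and limma 3.58.1 (R 4.3.3) for normexp (offset 50) and cyclic loess. Quantile normalization, other scalings, detection filters and probe rules were also tried. The calling steps were run on simulated data with known changes in 200 genes. This run checks the code only and holds nothing of the spread between cultures. One gene list is not reported here.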

Additional observations from a re-analysis of the deposited data

How the results depend on the processing

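The limits of these results are the single array per time point and the weak signal of Itga2 and of the dimmer probes of Itga1 and Itgb3, near the lowest intensity that counted as well above background (17.3 and 17.8 on the arrays). No paired analysis was possible because each time point has a single array. Without the filter on detection, or with detection on at least 1 array, Itga2 counts and 1 member was more than 1.5-fold and more than 2-fold lower, against 0. Under all other alternatives these counts stayed 0. The median log2 ratio of the members lay between -0.12 and 0.04.

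Over all genes, 520 were more than 1.5-fold higher and 830 lower, and 95 and 260 passed 2-fold. Scaling by the median gave 802 and 613 at 1.5-fold. Normexp correction gave 296 and 395 at 1.5-fold and 41 and 112 at 2-fold, and no filter on detection gave 1305 and 2177, and 492 and 983. Detection on at least 1 array gave 192 and 507 at 2-fold. Filters add dim probes by construction, and otherwise the cause was not tested. Normexp correction shifted 9 of 35 genes by more than the error within arrays, Itga2 the only member among them, and the mean over probes shifted 1. Using the dimmer probe was added after seeing the data, and normexp used the median spot intensity that the files hold.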
